A study of Mus musculus with 9 samples.

Results

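The comparison described here asks what potassium iodide changes when it is present while RAW264.7 cells are being polarized. It sets the 3 libraries called I, from cells given 100 ng/ml lipopolysaccharide (LPS), 50 ng/ml mouse interferon gamma (mIFNγ) and 20 mM potassium iodide, against the 3 libraries called M1, from cells given LPS and mIFNγ at the same concentrations and no iodide. These are 6 of the 9 libraries of the series, chosen by their group labels, and all 12474 rows of the gene tables were used. The other 3 libraries, called Mock, came from untreated cells. Their levels are given only as a reference, but they entered the choice of rows to test and the estimate of the spread. RAW264.7 is an established macrophage-like line of mouse origin, labelled wild type, so every value describes 1 cell line. All groups were grown in serum-containing medium, and the length of the exposure is not given in the sources used here. No group received another potassium salt or another solute, so iodide, potassium and the added osmolarity cannot be told apart.

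LPS is a bacterial cell wall component that activates Toll-like receptor 4, and interferon gamma acts through JAK kinases and STAT factors. Together they drive macrophages to what is called the M1 state, in which the cells make inflammatory cytokines, nitric oxide and reactive oxygen, and rely more on glycolysis. Iodide is taken up by thyroid cells for hormone synthesis and is oxidized by peroxidases in some phagocytes. Cells in a medium of raised osmolarity take up or make small organic solutes, and the factor NFAT5 activates the genes for this.

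Poly(A) RNA was sequenced, and levels are given as FPKM, fragments scaled by the length of the gene and the total of the library. The M1 libraries held 17765685 to 21867427 fragments and the I libraries 18370406 to 21202234, so 1 fragment on a gene of 1 kb was worth 0.0457 to 0.0563 FPKM. Across genes on the log2 scale, Pearson's r was 0.997 within M1 and within I and 0.977 to 0.979 between the groups. Whether the libraries of 1 group were separate cultures is not stated in the labels. The p-values here therefore reflect the spread among libraries within the groups, Mock included, and that spread may be technical only. Of 19 macrophage marker genes 18 were in the files, among them Csf1r, Lyz2, Adgre1, Cd68 and Spi1, and their summed level was 5370 to 5530 FPKM in M1 and 4340 to 4520 FPKM in I. Of 9 neutrophil, 8 fibroblast and 7 epithelial markers none was listed in the files, and of 10 lymphocyte markers only Lck was listed, at 3.34 to 3.96 FPKM in M1 and 3.29 to 3.48 in I. Of 10 dendritic cell markers 4 were listed, at a summed level of 24.7 to 25.2 FPKM in M1 and 50.1 to 53.9 FPKM in I, nearly all of it Cd83. Cd83 was the 1 member that passed the filter on low values, and without that filter 1 of the 4 was called higher and 1 lower. In such bulk samples, fewer cells of a type and less RNA per cell cannot be told apart.

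Of 11156 rows tested, 7157 (64.2%) differed between I and M1 in limma at an adjusted p under 0.05. There were 2775 rows higher in I (24.9%) and 4382 lower (39.3%), while 3999 were not called. Most differences were small, since the median size of a called difference was 0.30 on the log2 scale and 79.7% of the calls were under 0.5. At least 2-fold differences were found in 118 rows that rose (1.06%) and 86 that fell (0.771%). These counts depend on the treatment of low values, since a pseudocount of 0.1 gave 243 and 250 and limma-voom on recovered fragments 294 and 329, with more falls than rises. All 3 I libraries lay above all 3 M1 libraries in 26.4% of rows and below them in 40.8%. Genes named below for the largest rises and falls were chosen among called rows whose groups do not overlap. For them, the lack of overlap and an adjusted p under 0.05 follow from the choice. The median row fell by 0.07. The split between rises and falls depended on the scaling, because rises were 38.8% of the calls as deposited, 49.6% after median-of-ratios (RLE) scaling and 48.2% after quantile scaling. Every count of list members below is to be read against the 24.9% and 39.3%, unless another scaling or test is named. After RLE scaling 3478 of the 11156 rows were higher and 3540 lower, and after quantile scaling 3364 and 3610. Counts after these scalings are to be read against those shares.

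**Figure D1:**
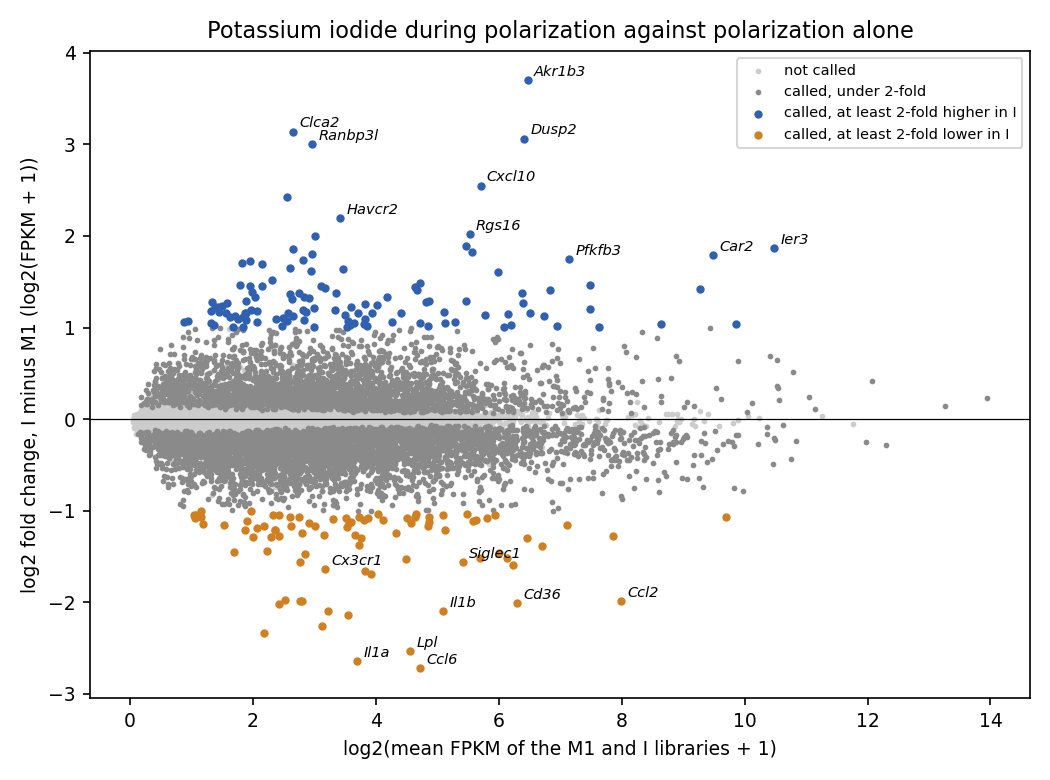
Each point is 1 of 11156 tested rows, with the log2 of the mean FPKM of the 6 libraries plus 1 on the x axis and the log2 fold change of I over M1 on the y axis. Blue and orange points are the 118 and 86 rows called and at least 2-fold higher or lower, dark grey points are other calls, and light grey points were not called. On this scale, log2(FPKM + 1), Akr1b3 has the highest rise and Ccl6 the largest fall. These ranks depend on the treatment of low values. In limma-voom Clca2 rose more than Akr1b3 (log2 fold changes 5.18 and 3.81), and Il1a fell more than Ccl6 (−3.04 and −2.91).

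Genes of osmolyte handling and ion transport included the largest rise. Of 15 genes of osmolyte handling, 10 rose and 3 fell, at a median log2 fold change of 0.37 against −0.07 over all tested rows. Akr1b3 encodes aldose reductase, which makes sorbitol from glucose (ENSMUSG00000001642.18, chromosome 6, 34302434 to 34317478, minus strand, GRCm38). Its level was 11.5, 11.8 and 11.7 FPKM in the M1 libraries and 168, 165 and 159 FPKM in the I libraries. The lowest I library was far above the highest M1 library, the means differed 14-fold, and the limma log2 fold change was 3.70 ± 0.0257 SE (adjusted p = 1.67e-14). Mock libraries held 61.3, 62 and 62.3 FPKM, between the other groups. Slc6a12, the betaine transporter gene (ENSMUSG00000030109.15, chromosome 6, 121343076 to 121365775, plus strand), was at 92.3, 96.8 and 94.5 FPKM in M1 and at 267, 261 and 259 FPKM in I. The groups did not overlap, and the log2 fold change was 1.46 ± 0.0264 SE (limma adjusted p = 2.84e-11). Nfat5 itself rose from 20.7 ± 1.2 to 29.6 ± 1.65 FPKM (mean ± SD of the n = 3 libraries of each group, as in all such values that follow). The heat shock 70 relative Hspa4l, an osmotically inducible chaperone, rose from 12.9 ± 0.105 to 37.7 ± 0.768 FPKM. The kinase gene Sgk1 went from 1.13 ± 0.18 to 3.28 ± 0.201 FPKM, and the neutral amino acid transporter gene Slc38a2 from 22.4 ± 0.831 to 39.8 ± 1.14 FPKM. The inositol transporter gene Slc5a3 rose less, from 7.52 ± 0.127 to 9.18 ± 0.279, and the taurine transporter gene Slc6a6 fell, from 58.4 ± 0.987 to 48.6 ± 1.66. The list of osmolyte handling therefore held members that moved in both directions.

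The promoters of 4 genes are shown here because these genes carried large differences in 3 of the gene groups described, osmolyte handling, chemokines and cytokines, and mRNA decay. Sequences run 5′ to 3′ from 250 bases before to 50 bases after the transcription start, as RefSeq gives them on GRCm38.p6. Capitals mark matches, on either strand, to the tonicity element consensus, the kappa-B consensus, the interferon response element, TGANTCA (AP-1) and TATAAA. Positions are counted from 1 at the first base shown.
Slc6a12 (chr6:121342324-121342623, plus strand, the first of 5 promoters listed): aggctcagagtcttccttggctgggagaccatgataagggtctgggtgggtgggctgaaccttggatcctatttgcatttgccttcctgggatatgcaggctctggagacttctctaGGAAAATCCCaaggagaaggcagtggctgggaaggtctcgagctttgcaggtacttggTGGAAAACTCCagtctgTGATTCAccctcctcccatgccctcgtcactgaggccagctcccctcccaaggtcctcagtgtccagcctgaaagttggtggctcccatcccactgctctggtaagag
Cxcl10 (chr5:92348840-92349139, minus strand): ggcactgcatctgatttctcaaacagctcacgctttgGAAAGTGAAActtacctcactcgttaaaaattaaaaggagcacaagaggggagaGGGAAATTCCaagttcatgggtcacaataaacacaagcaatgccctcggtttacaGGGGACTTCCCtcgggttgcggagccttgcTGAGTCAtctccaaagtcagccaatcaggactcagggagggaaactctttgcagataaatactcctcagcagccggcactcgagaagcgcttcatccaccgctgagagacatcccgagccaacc
Zfp36l1 (chr12:80112964-80113263, minus strand): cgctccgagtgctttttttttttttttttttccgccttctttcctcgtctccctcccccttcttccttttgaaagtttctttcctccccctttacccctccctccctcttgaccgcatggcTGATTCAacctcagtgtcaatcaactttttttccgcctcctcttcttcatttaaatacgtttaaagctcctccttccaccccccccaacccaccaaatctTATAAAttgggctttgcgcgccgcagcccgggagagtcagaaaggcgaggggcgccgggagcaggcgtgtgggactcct
Il1a (chr2:129309923-129310222, minus strand): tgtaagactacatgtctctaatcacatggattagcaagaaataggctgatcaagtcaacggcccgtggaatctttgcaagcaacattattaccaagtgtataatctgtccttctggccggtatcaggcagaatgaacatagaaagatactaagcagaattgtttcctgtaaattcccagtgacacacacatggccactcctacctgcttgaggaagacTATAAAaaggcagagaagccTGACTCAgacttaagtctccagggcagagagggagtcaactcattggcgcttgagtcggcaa
The Slc6a12 promoter held a kappa-B match at 118 to 127, a tonicity element match at 176 to 186 and an AP-1 match at 193 to 199. Its window ends before the gene start given for Slc6a12 above, and the other promoters listed for this gene are not shown. The Cxcl10 promoter held the interferon response element at 38 to 47, kappa-B matches at 92 to 101, 147 to 156 and 148 to 157, the last pair overlapping, and an AP-1 match at 177 to 183. In Zfp36l1 an AP-1 match stood at 122 to 128 and TATAAA at 222 to 227. In Il1a, TATAAA stood at 219 to 224 and an AP-1 match at 239 to 245. A match describes the letters and not a used site.

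The same motifs, and 4 more, were counted in the listed promoters of 8651 tested genes, where a match in any promoter of a gene counted. The tonicity element was matched in 4.27% of all genes, in 6 of 100 (6%) genes at least 2-fold higher in I and in 5 of 61 (8.2%) genes at least 2-fold lower. Kappa-B was matched in 12.1% of all genes, 15% of the raised set and 18% of the lowered set. The interferon response element was matched in 4.05%, 8% and 4.92% in the same order. TGANTCA was matched in 6% of all genes, in 11 of the 100 raised and in 12 of the 61 lowered (19.7%). TATAAA was matched in 8.28% of all, 12% of the raised and 19.7% of the lowered. The motif CCGGAAG, which ETS factors bind, was less frequent in both sets, with 22.3% of all, 8% of the raised and 3.28% of the lowered. The NRF1 motif was in 12.7%, 9% and 3.28% and the YY1 motif ATGGCGG in 10.3%, 4% and 1.64%, in the same order. The hypoxia response core ACGTG was in 30.3%, 36% and 21.3%. These shares are descriptions and were not tested, and the sets that moved are small.

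Among chloride channels and volume regulators, 9 of 24 rose and 9 fell (10 and 6 after RLE scaling). Clca2, a chloride channel accessory gene (ENSMUSG00000036960.10, chromosome 3, 145070263 to 145099443, minus strand), was at 0.238, 0.305 and 0.291 FPKM in M1 and 9.64, 10.5 and 10.7 FPKM in I. It was low in M1, and every I library was well above every M1 library (limma log2 fold change 3.14 ± 0.0533 SE, adjusted p = 2.07e-11). The endosomal chloride transporter gene Clcn3 rose from 11.3 ± 0.234 to 16 ± 0.266 FPKM and Lrrc8a, the obligate subunit of the volume-regulated anion channel, from 1.1 ± 0.0977 to 1.55 ± 0.0942 FPKM. Its partner subunits Lrrc8d and Lrrc8c fell, with Lrrc8d at 15.4 ± 0.552 in M1 and 11.7 ± 0.149 in I and Lrrc8c at 5.92 ± 0.142 and 4.59 ± 0.149 FPKM. The proton-activated chloride channel gene Pacc1 fell from 19.1 ± 0.514 to 11.4 ± 0.637 FPKM. Of 20 genes of potassium and cation transport, 9 rose and 8 fell. Fxyd2, a regulator of the sodium pump, rose from 41.3 ± 1.65 to 76.6 ± 3.71 FPKM, and the beta subunit gene of that pump, Atp1b3, fell from 342 ± 7.11 to 264 ± 4.83 FPKM. The calcium pumps Atp2a2, of the endoplasmic reticulum, and Atp2b1, of the plasma membrane, rose from 53.8 ± 0.889 to 92.3 ± 1.37 and from 9.97 ± 0.165 to 17.4 ± 0.826 FPKM. The inward rectifier potassium channel gene Kcnj2 rose from 19 ± 1.38 to 32.3 ± 1.66 FPKM, and the background potassium channel gene Kcnk13 fell from 12.1 ± 0.579 to 6.02 ± 0.297 FPKM. Of 18 genes of iodide and halide handling, 2 were listed in the files and 1 was tested, the thyroid hormone receptor gene Thra, which fell from 9.53 ± 0.255 to 8.16 ± 0.103 FPKM. The sodium iodide symporter gene Slc5a5 is not analysed here. The tables list no 0 in any library, so genes silent in 1 group and active in another are not analysed here.

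Inflammatory messengers moved in both directions. Of 35 genes for cytokines and chemokines, 12 were higher in I and 16 lower, and 9 of the falls were at least 2-fold. Cxcl10 (ENSMUSG00000034855.13, chromosome 5, 92346638 to 92348889, minus strand) and Cxcl11 (ENSMUSG00000060183.6, chromosome 5, 92359544 to 92365485, minus strand), ligands of the receptor CXCR3 on T cells, both rose. Cxcl10 was at 13.9, 14.4 and 14.2 FPKM in M1 and at 87.8, 87.8 and 88.5 FPKM in I, with 79.2, 78.3 and 84.1 FPKM in Mock. The 3 I libraries were thus all above the M1 libraries and near the level of untreated cells. Cxcl11 was at 18.9, 20.2 and 19.98 FPKM in M1 and 74.6, 70.7 and 71.8 FPKM in I, and Mock held 2.19 ± 0.314 FPKM. Neither gene's groups overlapped, and the limma log2 fold changes were 2.55 ± 0.0299 SE for Cxcl10 and 1.82 ± 0.0607 SE for Cxcl11 (adjusted p = 9.88e-13 and 2.45e-09).

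Several CC chemokine genes fell. Ccl6, a macrophage chemokine (ENSMUSG00000018927.3, chromosome 11, 83587882 to 83593087, minus strand), was at 43.2, 44.8 and 45.6 FPKM in M1 and 5.99, 6.25 and 5.47 FPKM in I. Ccl2, which attracts monocytes (ENSMUSG00000035385.5, chromosome 11, 82035571 to 82037453, plus strand), was at 404, 417 and 392 FPKM in M1 and 102, 99.7 and 101 FPKM in I. For both, all I libraries lay below all M1 libraries, with limma log2 fold changes of −2.72 ± 0.0897 SE (adjusted p = 2.27e-09) and −1.99 ± 0.0332 SE (adjusted p = 1.91e-11). The Ccl6 neighbour Ccl9 fell from 329 ± 8.65 to 135 ± 2.98, Ccl22 from 6.59 ± 0.356 to 0.509 ± 0.216 and Ccl5 from 1119.6 ± 27 to 534 ± 21 FPKM. Ccl3 and Ccl4 rose instead, Ccl3 from 3688 ± 93.9 to 4925 ± 202 and Ccl4 from 1290.3 ± 43.6 to 1658 ± 73.9 FPKM.

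The interleukin 1 family was also divided. Il1a (ENSMUSG00000027399.1, chromosome 2, 129299610 to 129309972, minus strand) was at 23.4, 19 and 21.6 FPKM in M1 and 2.68, 2.37 and 2.66 FPKM in I, and Il1b (ENSMUSG00000027398.13, chromosome 2, 129364570 to 129371139, minus strand) at 55.9, 54.4 and 53.4 and 12.3, 12.1 and 11.5 FPKM. Both encode agonists of the interleukin 1 receptor, and in both the highest I library was below the lowest M1 library (limma log2 fold changes −2.64 ± 0.0719 SE and −2.10 ± 0.0411 SE, adjusted p = 5.78e-10 and 5.05e-11). Il1rn, which encodes the antagonist of the same receptor, rose from 1039 ± 29.5 to 1676 ± 16.6 FPKM. The agonist and antagonist transcripts thus moved in opposite directions. Among other cytokines, the interleukin 6 family member Lif fell from 39.1 ± 0.666 to 17.4 ± 0.597 and the interleukin 12 family members Il27 and Il23a from 157 ± 3.26 to 78.1 ± 4.4 and from 0.775 ± 0.181 to 0.148 ± 0.0696 FPKM. Il15, which sustains natural killer and memory T cells, rose from 10.1 ± 0.232 to 15.6 ± 0.66 FPKM and the TNF family member Tnfsf14 from 0.358 ± 0.177 to 1.51 ± 0.262 FPKM.

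**Figure D2:**
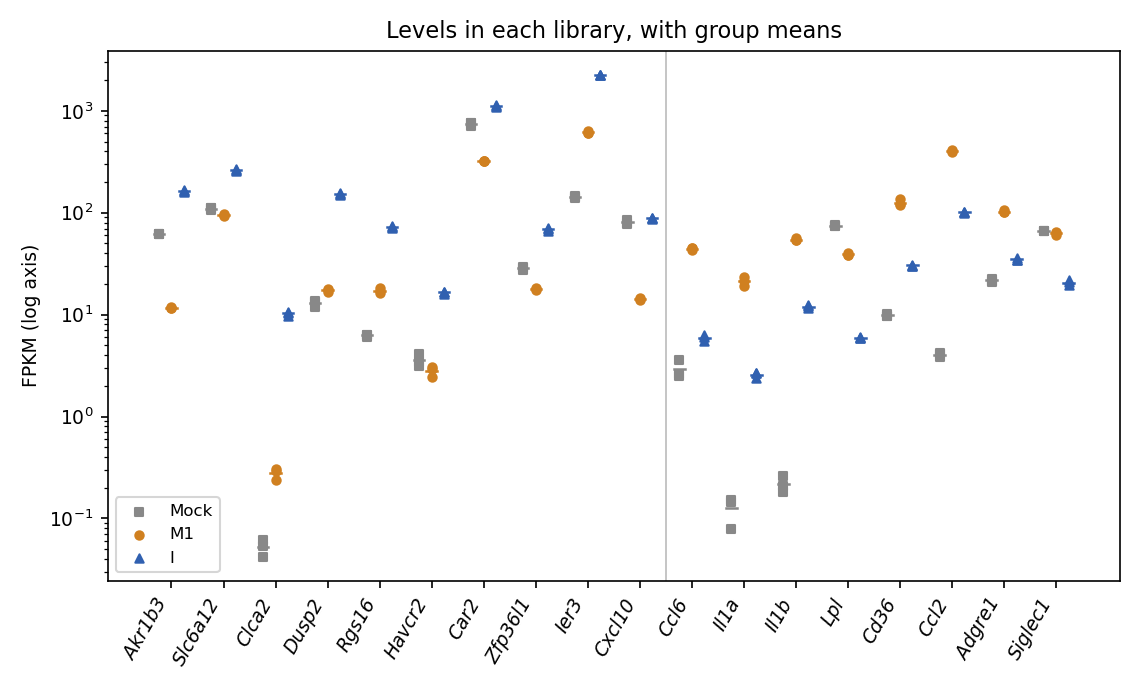
FPKM on a log axis for 18 genes named in the text, with 1 point per library (squares Mock, circles M1, triangles I) and a bar at each group mean. To the left of the vertical line are genes higher in I and to the right genes lower in I. In each of the 18 the 3 I points do not overlap the 3 M1 points. Most of these genes were chosen by a rule that required this, so it is no further result.

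Of 35 receptor genes 16 (45.7%) were higher and 14 (40%) lower, against 24.9% and 39.3% of all tested rows. Havcr2, which encodes the inhibitory receptor TIM-3 (ENSMUSG00000020399.14, chromosome 11, 46454935 to 46481255, plus strand), was at 2.46, 3.09 and 2.94 FPKM in M1 and at 16.7, 16.1 and 16.8 FPKM in I. The groups were apart by several times their spread (a 5.84-fold ratio of means, limma adjusted p = 4.3e-09), and Mock held 3.46, 4.09 and 3.15 FPKM. Havcr2 lies outside the lists and was named by the size of its change. The chemokine receptor gene Ccr1 rose from 1.93 ± 0.185 to 8.23 ± 0.774, the activating receptor gene Trem1 from 1.38 ± 0.128 to 4.42 ± 0.27 and Cd83, a marker of mature dendritic cells, from 24.4 ± 0.337 to 51.8 ± 1.94 FPKM. The interleukin 10 receptor gene Il10ra rose from 29.9 ± 1.03 to 49 ± 0.465 FPKM. Falls were seen in the urokinase receptor gene Plaur, from 66.3 ± 2.69 to 30.5 ± 1.26, in the granulocyte factor receptor gene Csf3r, from 5.72 ± 0.0233 to 2.26 ± 0.324, and in the checkpoint ligand gene Cd274, from 70.7 ± 2.55 to 46.7 ± 0.191 FPKM. The fractalkine receptor gene Cx3cr1 (ENSMUSG00000052336.7, chromosome 9, 119901616 to 120069879, minus strand) was at 12.5, 13.2 and 12.1 FPKM in M1 and at 3.05, 3.38 and 3.69 FPKM in I. The I libraries were the lowest of all 9, since Mock held 51.6, 52.6 and 51.9 FPKM.

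Interferon-stimulated genes leaned upward by small amounts. Of 60 such genes 33 rose and 16 fell, at a median log2 fold change of 0.11. Rises were found in Eif2ak2, the RNA-activated kinase gene, from 24.3 ± 1.69 to 41.5 ± 0.861, in Ifit1, from 12.3 ± 0.65 to 20.3 ± 0.849, in Mx2, from 22.4 ± 0.487 to 36.5 ± 0.698, and in Ifih1, a sensor of viral RNA, from 19.6 ± 0.35 to 26.1 ± 0.959 FPKM. Ifi205, a member of the p200 family, fell from 5.96 ± 0.705 to 1.86 ± 0.318 and Oas3 from 78.2 ± 2.12 to 60.8 ± 1.42 FPKM. Of 20 genes of guanylate-binding proteins and immunity-related GTPases, which interferon gamma induces to attack vacuoles with microbes, 5 rose and 10 fell (5 and 8 after RLE scaling), shares near those of all tested rows. Gbp5 fell from 27.9 ± 0.603 to 16.3 ± 0.347, Gbp2 from 72.9 ± 2.94 to 60.2 ± 1.22 and Gbp4 from 10.4 ± 0.899 to 7.54 ± 0.309 FPKM, whereas Irgm2 rose from 11.6 ± 0.301 to 20.1 ± 0.116 and Igtp from 56 ± 2.08 to 83.3 ± 1.56 FPKM. Both families hold near-identical copies that can share fragments. In antigen presentation 5 of 29 genes rose and 13 fell, but after RLE scaling 10 rose and 8 fell, so the lean of that list depends on the scaling. The interferon-inducible proteasome genes Psmb9 and Psme2 fell from 37.8 ± 2.22 to 25.6 ± 0.493 and from 129.7 ± 3 to 88 ± 3.37 FPKM, while the class I gene H2-M3 rose from 72.4 ± 2.42 to 88.9 ± 2.81 FPKM. Of 32 genes of JAK, STAT, IRF and SOCS proteins, 11 rose and 12 fell, and after RLE scaling 14 rose and 7 fell. The kinase gene Jak2 rose from 32.6 ± 1.61 to 46.2 ± 1.92, Socs5 from 4.37 ± 0.232 to 7.72 ± 0.475 and Irf1 from 36.5 ± 0.343 to 43.7 ± 0.436 FPKM, and the phosphatase gene Ptpn6 fell from 170.4 ± 2.89 to 131 ± 4.18 FPKM.

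Genes of AP-1 and the immediate early response mostly rose. Immediate early genes are switched on within minutes of a signal, and many encode subunits or regulators of the transcription factor AP-1. The list joined them with other AP-1 family and stress genes. Of 39 tested, 29 rose and 5 fell, at a median log2 fold change of 0.40. Ier3, an early response gene that modulates apoptosis (ENSMUSG00000003541.6, chromosome 17, 35821684 to 35822923, plus strand), was at 604, 636 and 604 FPKM in M1 and 2255, 2252 and 2235 FPKM in I. Its groups were well apart, and Mock was lower than both at 141, 146 and 141 FPKM (limma log2 fold change I over M1 1.87 ± 0.0278 SE, adjusted p = 7.83e-12). The AP-1 family genes Jdp2, Batf, Junb and Fosl2 rose from 12.4 ± 0.636 to 35.3 ± 2.83, from 3.28 ± 0.128 to 8.8 ± 0.608, from 219 ± 10.3 to 424 ± 7.01 and from 16.9 ± 0.401 to 31.2 ± 0.507 FPKM. The stress gene Gadd45b rose from 107 ± 0.576 to 249 ± 2.19 and the growth regulator gene Myc from 5.4 ± 0.0361 to 9.28 ± 0.667 FPKM. The falls were those of Id1, Id3, Gadd45g, Egr1 and Batf2. Egr1 fell from 6.86 ± 0.554 to 5.39 ± 0.192 and Id3, an inhibitor of helix-loop-helix factors, from 11.2 ± 0.374 to 7.42 ± 0.371 FPKM. Among 10 Kruppel-like factor genes 4 rose and 1 fell. Klf4 rose from 0.678 ± 0.17 to 2.77 ± 0.388 FPKM, and its Mock level was 4.88 ± 0.198 FPKM.

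Genes that limit signalling and shorten the life of inflammatory mRNAs were among the larger rises. Dusp2, a nuclear phosphatase that inactivates MAP kinases (ENSMUSG00000027368.6, chromosome 2, 127336159 to 127338376, plus strand), was at 16.6, 17.4 and 17.8 FPKM in M1 and at 156, 148 and 151 FPKM in I. The I libraries were all far above both M1 and Mock, where it was 12, 13.2 and 13.6 FPKM (limma log2 fold change I over M1 3.06 ± 0.0449 SE, adjusted p = 7.83e-12). Of 17 genes of this family 6 rose and 4 fell, with Dusp5 going from 54.1 ± 1.82 to 87 ± 1.71 and Dusp7 in the other direction from 15.6 ± 0.664 to 6.64 ± 0.0973 FPKM. Rgs16, which shortens signals of G-protein-coupled receptors (ENSMUSG00000026475.7, chromosome 1, 153740349 to 153745468, plus strand), was at 16.3, 18.3 and 17 FPKM in M1 and 73.2, 70.9 and 74.6 FPKM in I. It is in no list and was named for its size (limma log2 fold change 2.02 ± 0.0418 SE, adjusted p = 8.04e-11). Of 27 genes of mRNA decay 15 rose and 4 fell. Zfp36l1, a protein that binds AU-rich elements and recruits the deadenylase (ENSMUSG00000021127.7, chromosome 12, 80107754 to 80113013, minus strand), was at 17.4, 18 and 17.9 FPKM in M1 and 69.5, 66.9 and 70.03 FPKM in I. Mock held 27.5, 29 and 29.5 FPKM, and the I libraries lay above both other groups (limma log2 fold change I over M1 1.89 ± 0.0332 SE, adjusted p = 2.44e-11). Its relative Zfp36, which encodes tristetraprolin, rose from 131 ± 1.55 to 263 ± 1.45 FPKM, and Zc3h12a, which encodes the endonuclease regnase-1, rose less, from 39.4 ± 1.83 to 45.7 ± 0.344 FPKM. The other relative Zfp36l2 fell from 16.5 ± 0.562 to 12.1 ± 0.598 FPKM. The 3 Zfp36 genes thus did not all move the same way.

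Of 21 genes of MAP kinases and their feedback 10 rose and 5 fell (11 and 2 after RLE scaling), with Mapk11 going from 3.98 ± 0.286 to 8.69 ± 0.815 and Mapk3 from 114 ± 2.95 to 79.8 ± 2.13 FPKM. In the NF-kB pathway 11 of 23 genes rose and 6 fell. The falls included the noncanonical subunits Nfkb2, from 31.3 ± 1.19 to 17 ± 0.393, and Relb, from 6.52 ± 0.526 to 4.23 ± 0.321 FPKM, as well as the inhibitor gene Nfkbib, from 60.7 ± 1.06 to 42.6 ± 2.03 FPKM. The canonical subunit gene Rel rose from 20.3 ± 0.986 to 25.8 ± 0.663, the cofactor genes Nfkbiz and Bcl3 from 79.2 ± 0.571 to 116 ± 2.14 and from 32.7 ± 1.36 to 43.4 ± 0.698, and the inhibitor gene Tnip3 from 12 ± 0.586 to 22.6 ± 0.173 FPKM. Nfkb1 was not called, at 20.1 ± 0.682 FPKM in M1 and 19.4 ± 0.398 FPKM in I. Of 33 genes of Toll-like receptor signalling 12 rose and 11 fell (15 and 6 after RLE scaling). The receptors of bacterial lipoproteins and of RNA in endosomes, Tlr2, Tlr3, Tlr7 and Tlr13, rose from 10.7 ± 0.264 to 16.3 ± 1.06, from 3.09 ± 0.192 to 4.95 ± 0.153, from 12.8 ± 0.926 to 17.7 ± 0.698 and from 10.3 ± 0.343 to 17.5 ± 0.551 FPKM. Tlr4, the LPS receptor, fell from 7.23 ± 0.615 to 5.51 ± 0.434 FPKM, and Unc93b1, which brings the endosomal receptors to their place, fell from 192 ± 6.01 to 122 ± 1 FPKM. The kinase gene Map3k8 rose from 4.3 ± 0.285 to 9.66 ± 0.521 and the adaptor gene Myd88 from 21.6 ± 0.75 to 29.7 ± 1.38 FPKM.

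Transcripts of glycolysis and the hypoxia response mostly rose, and nuclear transcripts of mitochondrial respiration mostly fell. Of 46 genes of glycolysis and of the hypoxia-inducible factor response, 33 rose and 5 fell, at a median log2 fold change of 0.31. Pfkfb3, which makes the activator of phosphofructokinase (ENSMUSG00000026773.19, chromosome 2, 11471433 to 11554077, minus strand), was at 64.3, 64.7 and 63.5 FPKM in M1 and 209.8, 221 and 221 FPKM in I. The groups were far apart (limma log2 fold change 1.74 ± 0.0307 SE, adjusted p = 2.44e-11), and Mock held 6.63 ± 0.226 FPKM. The glucose transporter gene Slc2a3 rose from 23.7 ± 0.411 to 41.2 ± 0.313, hexokinase 2 (Hk2) from 26.8 ± 0.724 to 45.1 ± 1.57 and pyruvate kinase (Pkm) from 1149 ± 33.6 to 1799 ± 62.7 FPKM. The hypoxia response genes Adm, Ddit4 and Ndrg1 rose from 47.5 ± 1.49 to 97.8 ± 1.73, from 31.5 ± 1.42 to 54 ± 1.27 and from 99.98 ± 1.37 to 154 ± 3.28 FPKM. Other enzymes of glycolysis did not share the rise, with Aldoa falling from 981 ± 23.5 to 867 ± 17.2 FPKM and the lactate dehydrogenase gene Ldha not called at 959 ± 12.5 FPKM in M1 and 949 ± 18.8 FPKM in I. The hexokinase gene Hk3 fell from 379.9 ± 11.2 to 278 ± 3.37 FPKM. In the pentose phosphate and NADPH list, 0 of 14 rose (0 at an unadjusted limma p under 0.05 and 0 in limma-voom) and 13 fell, with a median of −0.29, whereas 1 rose and 9 fell after RLE scaling and 1 rose and 10 fell after quantile scaling. Rpia, which makes ribose 5-phosphate, fell from 3.69 ± 0.0593 to 1.51 ± 0.0832 and Taldo1 from 84.8 ± 4.56 to 62.9 ± 2.36 FPKM. The first enzyme of the pathway, G6pdx, fell from 122 ± 1.63 to 117 ± 1.49 FPKM, and this call was lost with RLE and with quantile scaling and without I replicate 3 (limma adjusted p = 0.0556).

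Of 33 genes of the tricarboxylic acid cycle and its links, 29 fell and 2 rose, at a median log2 fold change of −0.32. Idh2, the NADP-dependent isocitrate dehydrogenase of mitochondria, fell from 13.4 ± 0.285 to 7.62 ± 0.575, Fh1 from 20.4 ± 0.647 to 13.7 ± 0.762 and Ogdh from 24.8 ± 0.814 to 17.4 ± 0.563 FPKM. The rises included that of pyruvate carboxylase (Pcx), which feeds carbon into the cycle, from 0.986 ± 0.158 to 2.23 ± 0.234 FPKM.

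The nuclear and the mitochondrial genes of the respiratory chain differed in direction. Of 77 nuclear genes for complexes I, III, IV and V, 62 fell and 1 rose, the complex I gene Ndufa11, and the median log2 fold change was −0.34. By complex, 31 of 38 genes of complex I, 6 of 8 of complex III, 11 of 14 of complex IV and 14 of 17 of complex V fell. Atp5g2, which encodes subunit c of the ATP synthase, fell from 63.8 ± 1.1 to 36.5 ± 0.423, the complex I gene Ndufs5 from 35.8 ± 1.32 to 20.5 ± 1.69 and the complex IV gene Cox7c from 41 ± 1.18 to 24.8 ± 1.85 FPKM. Summed over the 77 genes, the level was 4050.1, 4237.5 and 4140 FPKM in the M1 libraries and 3433.6, 3262.6 and 3337 FPKM in the I libraries. The sums of the I libraries were all below those of M1 and overlapped those of Mock, which were 3387.4, 3478.7 and 3576.5 FPKM.

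Of the 13 protein genes of the mitochondrial genome, which encode other subunits of the same complexes, 11 were in the files, and 8 rose and 0 fell in limma at an adjusted p under 0.05 (0 fell at an unadjusted p under 0.05). After RLE scaling 9 rose, after quantile scaling 8, and in the fit of the 6 libraries alone 7, and none of these fits called a fall. Leaving out 1 library left 5 to 8 rises, the fewest without M1 replicate 3, and no fall. These rows had no matched gene length and are not in the limma-voom fit. Summed over the 11 genes, the level was 11739, 11193 and 10403 FPKM in M1 and 13365, 13314 and 11802 FPKM in I. The lowest I sum was thus little above the highest M1 sum, and the Mock sums were 16213, 16208 and 16064 FPKM. ND1, a complex I subunit, was at 281, 277 and 245 FPKM in M1 and 508, 495 and 480.2 FPKM in I. CYTB, of complex III, was at 382, 369 and 327 FPKM in M1 and 609, 596 and 535 FPKM in I. In both the groups were apart, but the levels stayed below those of Mock, which were 2097 ± 8.4 FPKM for ND1 and 1773 ± 21.3 FPKM for CYTB. COX1, the most abundant of them, rose from 9343 ± 528 to 10341 ± 767 FPKM, but its call was lost without I replicate 1 or 2 or M1 replicate 2 or 3 (limma adjusted p = 0.0811 to 0.17). ND6, COX3 and ND4L were not called. The call of ATP6 was lost without I replicate 2 (limma adjusted p = 0.0608) or without M1 replicate 3 (adjusted p = 0.0702).

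The proteins that translate the mitochondrial genome are encoded in the nucleus, and of their 77 ribosomal genes 66 fell and 3 rose, at a median log2 fold change of −0.36. The largest falls included Mrps16, from 7.47 ± 0.549 to 3.89 ± 0.948, and Mrps28, from 10.9 ± 1.24 to 6.09 ± 2.08 FPKM, and the rises were those of Mrps6, Mrps21 and Mrpl45. The sum over the 77 genes was 1103.2, 1133.3 and 1125.1 FPKM in M1 and 927.8, 897.58 and 905.56 FPKM in I. All 3 sums in I were below those in M1 and below those of Mock, which were 1149.3, 1178.4 and 1199.1 FPKM.

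**Figure D3:**
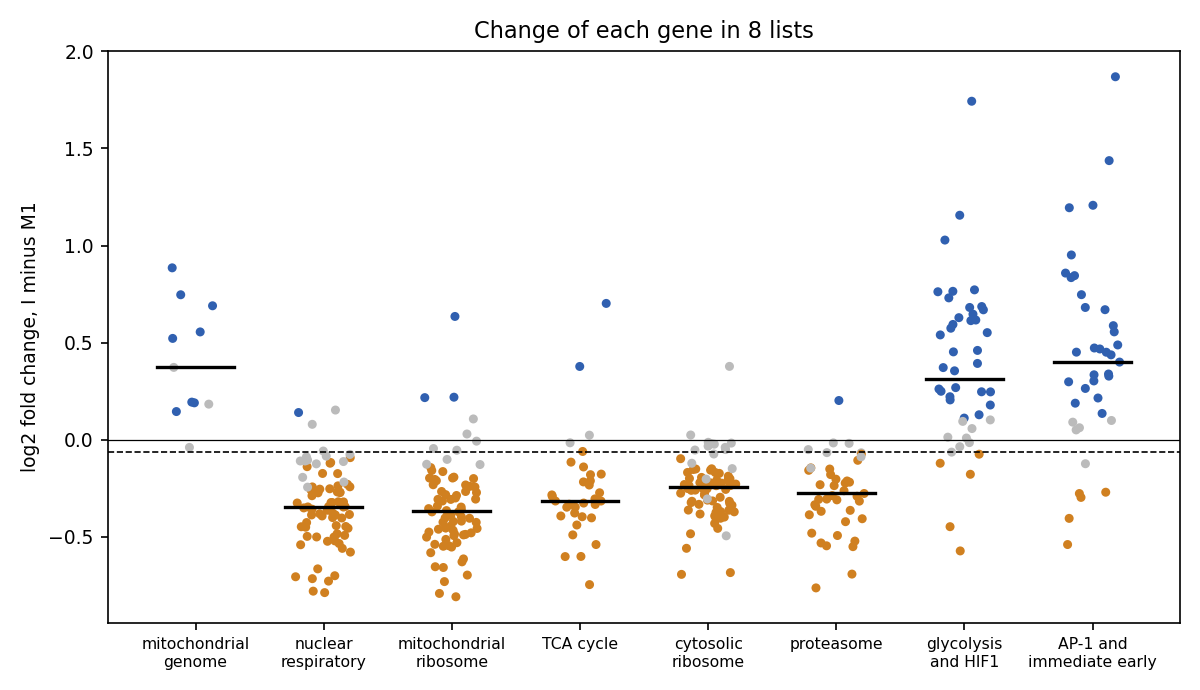
Log2 fold change of I over M1 for each tested gene of 8 lists, with a bar at each list's median and a dashed line at the median of all tested rows (−0.07). Blue points were called higher, orange points lower and grey points not called. In the mitochondrial genome list 8 of 11 points are blue and none is orange, whereas in the nuclear respiratory list 62 of 77 points are orange.

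Cytosolic ribosomal protein genes were also mostly lower. Of 81 tested 65 fell and 0 rose (0 also at an unadjusted limma p under 0.05 and in limma-voom), with a median of −0.25, and after quantile scaling 47 fell and 3 rose. The sums were 23905, 25140 and 24686 FPKM in M1 and 21649, 20220 and 20941 FPKM in I. The I sums overlapped those of Mock, which were 19362, 20188 and 20734 FPKM. Rps2 fell from 84.3 ± 4.96 to 51.7 ± 0.497, Rpsa from 811 ± 6.25 to 602 ± 23.4 and Rpl3 from 287 ± 3.26 to 209 ± 7 FPKM. Ribosomal protein genes have many processed pseudogenes that can share their fragments, so single values are uncertain. Of 74 genes of ribosome biogenesis 43 fell and 3 rose (35 and 8 after RLE scaling). Nucleophosmin (Npm1) fell from 262 ± 14.2 to 191 ± 1.52 and Mybbp1a from 14 ± 0.321 to 8.73 ± 0.369 FPKM, and Polr1a, the large subunit of RNA polymerase I, rose from 5.13 ± 0.12 to 6.25 ± 0.249 FPKM. Of 40 genes of transfer RNA synthetases and their partners 24 fell and 3 rose. Host genes of small nucleolar RNAs are spliced RNAs whose introns release those guides of RNA modification, and this list was chosen after values had been seen. Of 13 such genes 9 fell and 0 rose (0 at an unadjusted limma p under 0.05, and 0 of 8 in limma-voom), with Gas5 going from 19.2 ± 0.614 to 13.1 ± 0.787 and Snhg6 from 11.8 ± 0.618 to 5.99 ± 0.888 FPKM. In a further list chosen in the same way, purine and pyrimidine synthesis, 13 of 16 fell and 0 rose (0 at an unadjusted limma p under 0.05 and 0 in limma-voom), and after RLE scaling 12 fell and 1 rose. Impdh2, the rate-limiting enzyme of guanine nucleotide synthesis, fell from 18.1 ± 0.803 to 6.35 ± 0.259, Ctps from 8.23 ± 0.343 to 4.78 ± 0.347 and Upp1, a uridine phosphorylase, from 411 ± 10.9 to 261 ± 6.86 FPKM.

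Genes of protein breakdown were mostly lower, and chaperone genes were divided. Of 43 proteasome genes 35 fell and 1 rose, at a median log2 fold change of −0.28. Psma6 fell from 174 ± 1.55 to 102 ± 7.27 and Psmb3 from 52.7 ± 1.27 to 35.7 ± 1.29 FPKM, and the rise was that of the activator gene Psme4. Of 37 heat shock and chaperone genes 20 fell and 11 rose. The mitochondrial chaperonin genes Hspd1 and Hspe1 fell from 74.9 ± 2.23 to 34.8 ± 1.44 and from 68.8 ± 2.84 to 35.3 ± 2.32, and the cytosolic chaperonin gene Cct4 from 59.8 ± 2.43 to 37.8 ± 0.824 FPKM. The rises included the stress-inducible genes Hspa1b, from 2.38 ± 0.0925 to 4.36 ± 0.309, Hsph1, from 17.5 ± 0.946 to 25.3 ± 0.415, and Hsp90aa1, from 151 ± 9.13 to 203 ± 5.48 FPKM, while the constitutive gene Hsp90ab1 fell from 777 ± 12 to 560.4 ± 5.96 FPKM. Hspa1b has a near-identical neighbour, so its level is uncertain. In the unfolded protein response of the endoplasmic reticulum 11 of 33 rose and 13 fell, and after RLE scaling 16 rose and 9 fell. Dnajb9 rose from 5.7 ± 0.309 to 9.4 ± 0.696 and the sensor kinase gene Eif2ak3 from 2.88 ± 0.164 to 4.1 ± 0.103 FPKM, and the other sensor gene Ern1 fell from 10.1 ± 0.534 to 6.63 ± 0.406 FPKM. Targets of ATF4, the factor of the amino acid and stress response, were as divided, with 11 of 30 higher and 13 lower (13 and 10 after RLE scaling). Chac1, which breaks down glutathione, rose from 3.5 ± 0.722 to 6.89 ± 0.833 and Stc2 from 2.8 ± 0.0472 to 5.39 ± 0.535 FPKM, whereas the asparagine synthetase gene Asns fell from 88.6 ± 2.65 to 67.2 ± 1.83 and Mthfd2, of mitochondrial folate metabolism, from 50.4 ± 1.48 to 35.3 ± 0.66 FPKM.

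Genes of redox control and of the phagocyte oxidase were mostly lower. Of 36 genes of NRF2 and redox control 22 fell and 8 rose. Prdx3, the mitochondrial peroxiredoxin, fell from 40.2 ± 1.02 to 24.6 ± 1.98, Gpx1 from 154 ± 2.18 to 109 ± 5.57 and Gclm from 8.01 ± 0.138 to 4.81 ± 0.0349 FPKM. Rises were found in Srxn1, from 31.9 ± 0.453 to 43.5 ± 0.255, and in Gclc, the catalytic partner of Gclm in glutathione synthesis, from 5.75 ± 0.462 to 7.48 ± 0.324 FPKM. Of 10 genes of the NADPH oxidase, which makes superoxide, 8 fell and 2 rose (5 and 2 after quantile scaling). The membrane subunits Cybb and Cyba fell from 357 ± 4.99 to 240.2 ± 9.28 and from 247 ± 15.9 to 188 ± 4.18 FPKM. Of 32 genes of iron and heme 20 fell and 4 rose. The iron exporter gene Slc40a1 fell from 5.28 ± 0.179 to 1.81 ± 0.13, the iron importer gene Slc11a2 from 24.6 ± 0.22 to 13.2 ± 0.299 and the heme transporter gene Slc48a1 from 25.4 ± 1.18 to 14 ± 0.623 FPKM. Ceruloplasmin (Cp) rose from 18.3 ± 0.602 to 25.8 ± 1.1 and the siderophore-binding protein gene Lcn2 from 225 ± 3.5 to 287 ± 4.23 FPKM.

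In the lysosome 32 of 53 genes fell and 10 rose (27 and 16 after RLE scaling). The arylsulfatase gene Arsb fell from 3.42 ± 0.0154 to 1.31 ± 0.125, Psap, a precursor of sphingolipid activators, from 496 ± 11.9 to 284 ± 1.36 and Gusb from 83.2 ± 1.35 to 50.04 ± 0.654 FPKM. The cathepsin genes divided, with Ctsh rising from 1.15 ± 0.0404 to 3.59 ± 0.261 and Ctsf from 0.748 ± 0.0502 to 1.68 ± 0.0654 and Ctsd falling from 800.3 ± 15.5 to 479 ± 12.6 FPKM. Of 20 genes of the vacuolar proton pump 9 fell and 2 rose (9 and 6 after RLE scaling). Of 36 autophagy genes 17 rose and 7 fell, at a median log2 fold change of 0.12. Atg2a rose from 5.95 ± 0.278 to 10.4 ± 0.295 and Bnip3, a receptor for the removal of mitochondria, from 84.2 ± 1.63 to 128 ± 11.8 FPKM, and Atg7 fell from 13.9 ± 0.635 to 8.91 ± 0.237 FPKM.

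Of 37 genes of sterol and fatty acid synthesis 25 fell and 5 rose (19 and 8 after RLE scaling). The desaturase gene Fads1 fell from 38.3 ± 0.675 to 20.6 ± 0.527 and Dhcr7, of the last step to cholesterol, from 8.46 ± 0.648 to 4.58 ± 0.302 FPKM. Of 31 genes of lipid uptake and of the sterol-sensing receptor LXR, 8 rose and 13 fell. Lpl, the lipoprotein lipase (ENSMUSG00000015568.16, chromosome 8, 68880491 to 68907448, plus strand), was at 40.2, 38.3 and 38.8 FPKM in M1 and 5.87, 6.09 and 5.83 FPKM in I, and Mock held 74.7, 75.4 and 74.6 FPKM. Cd36, a scavenger receptor for lipids (ENSMUSG00000002944.15, chromosome 5, 17781690 to 17888801, minus strand), was at 135, 119.7 and 121 FPKM in M1 and 30.3, 30.8 and 30.3 FPKM in I, with 9.77, 10.2 and 9.74 FPKM in Mock. For both the groups were apart (limma log2 fold changes −2.53 ± 0.0287 SE and −2.00 ± 0.043 SE, adjusted p = 9.88e-13 and 1.01e-10), and in Mock Lpl was higher and Cd36 lower than in either polarized group. The cholesterol exporter gene Abca1 rose from 4.64 ± 0.22 to 13.7 ± 1.03 FPKM. In eicosanoid synthesis 4 of 17 rose and 8 fell. The prostaglandin receptor gene Ptger4 rose from 3.03 ± 0.324 to 9.15 ± 0.278 and Ptgs2 from 1945 ± 123 to 2291 ± 34.5 FPKM, and the leukotriene gene Alox5ap fell from 64.7 ± 1.39 to 29.5 ± 0.7 and Ptges, the inducible prostaglandin E synthase, from 7.11 ± 0.11 to 3.76 ± 0.445 FPKM. In arginine and polyamine use 6 of 21 rose and 8 fell (8 and 7 after RLE scaling). Ass1, which rebuilds arginine from citrulline (ENSMUSG00000076441.9, chromosome 2, 31470207 to 31520672, plus strand), was at 13.2, 13.5 and 13.2 FPKM in M1 and 2.34, 1.76 and 1.92 FPKM in I. Its groups were apart (limma log2 fold change −2.26 ± 0.0705 SE, adjusted p = 1.55e-09). Among enzymes that consume arginine, Nos2 rose from 1447 ± 16.4 to 2069.6 ± 20.1 and Arg2 from 15.2 ± 1.8 to 24.9 ± 2.18 FPKM.

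Cell cycle genes were mostly lower. Of 51 replication genes 34 fell and 5 rose, and of 50 genes of mitosis and its cyclins 38 fell and 1 rose. Ccnd1, the cyclin that starts the cycle (ENSMUSG00000070348.5, chromosome 7, 144929931 to 144939925, minus strand), was at 121, 124 and 125 FPKM in M1 and 48, 49.5 and 51.4 FPKM in I, and Mock held 234 ± 3.25 FPKM. Its I libraries were all below the M1 libraries (limma log2 fold change −1.30 ± 0.0287 SE, adjusted p = 1.13e-10). Many of the others were at low levels in M1, such as Ube2c, which fell from 2.02 ± 0.303 to 0.437 ± 0.0682, and Cdc45, from 1.44 ± 0.328 to 0.402 ± 0.106 FPKM. The exceptions included Cks2, which rose from 33.4 ± 1.09 to 74.5 ± 5.52 FPKM, and the helicase gene Mcm7, which rose from 2.72 ± 0.151 to 4.25 ± 0.0862 FPKM while its partner Mcm5 fell from 6.56 ± 0.0969 to 3.94 ± 0.302 FPKM. Of 31 p53 target genes 21 fell and 7 rose. Plk2 fell from 157 ± 3.76 to 96.1 ± 0.357 and Ccng1 from 114 ± 4.12 to 76.1 ± 0.62, and Cdkn1a, which blocks the cycle, rose from 364 ± 10.7 to 434 ± 6.39 FPKM. In apoptosis 13 of 36 rose and 14 fell (16 and 13 after RLE scaling). The pro-death genes Bmf and Bcl2l11 rose from 0.747 ± 0.0716 to 3.2 ± 0.279 and from 6.57 ± 0.182 to 13.6 ± 0.212 FPKM, and so did the pro-survival gene Mcl1, from 382 ± 0.947 to 594 ± 11.3 FPKM. Bcl2a1a fell from 14.1 ± 1.33 to 2.52 ± 0.308 and Bcl2a1d from 92.8 ± 3.37 to 33.2 ± 1.39 FPKM, and these near-identical copies can share fragments. The inflammasome genes Casp1 and Nlrp3 fell from 41.8 ± 1.05 to 24 ± 1.17 and from 37 ± 1.09 to 24.6 ± 1.31 FPKM.

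Genes that mark macrophage identity were mostly lower. Of 18 macrophage identity genes 12 fell and 3 rose. Adgre1, which encodes the F4/80 antigen (ENSMUSG00000004730.15, chromosome 17, 57358691 to 57483527, plus strand), was at 105, 102 and 101 FPKM in M1 and 34.7, 34.6 and 36 FPKM in I. Every I library was below every M1 library and above Mock, which held 21.1, 22.6 and 21.5 FPKM (limma log2 fold change I over M1 −1.52 ± 0.0318 SE, adjusted p = 8.04e-11). Lyz2, the lysozyme gene, fell from 1138 ± 31.4 to 675 ± 23.7 and Cd68 from 323 ± 1.89 to 181 ± 3.08 FPKM. The rises were those of Csf1r, the receptor for the macrophage growth factor, from 69.8 ± 1.03 to 96.1 ± 1.41, of Cebpa, from 3.67 ± 0.14 to 5.4 ± 0.663, and of Ptprc, from 18.5 ± 0.733 to 23.3 ± 0.386 FPKM. Of 6 osteoclast markers tested 3 fell and 1 rose (5 and 1 in the fit of the 6 libraries alone), with Dcstamp, needed for cell fusion, falling from 47.7 ± 0.264 to 20.04 ± 0.247 and Mmp9 from 9.83 ± 0.418 to 1.73 ± 0.0838 FPKM. Whether the change in these markers has a part in the other differences was not tested.

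Among 33 lectin, Fc, complement and phagocytic receptor genes 12 rose and 16 fell, with 6 of the falls at least 2-fold (16 and 16 after RLE scaling). Siglec1, the sialoadhesin gene (ENSMUSG00000027322.11, chromosome 2, 131069220 to 131086765, minus strand), was at 59.8, 65.1 and 63.3 FPKM in M1 and 19.4, 21.7 and 20.9 FPKM in I. Clec12a, an inhibitory lectin gene, was at 21.1, 19.8 and 20.3 FPKM in M1 and 5.72, 5.92 and 5.64 FPKM in I. The groups were apart in both (limma log2 fold changes −1.56 ± 0.0412 SE and −1.66 ± 0.0362 SE, adjusted p = 4.69e-10 and 1.06e-10). The formyl peptide receptor gene Fpr2 fell from 18 ± 0.98 to 3.33 ± 0.184, complement C3 from 15.1 ± 0.51 to 6.09 ± 0.235 and the integrin genes Itgb2 and Itgal from 367 ± 4.95 to 217 ± 1.8 and from 53.5 ± 1.09 to 29.97 ± 0.281 FPKM. The kinase gene Syk, which acts below several of these receptors, rose from 24.3 ± 0.501 to 38.9 ± 0.916 and the Fc receptor gene Fcgr4 from 26.9 ± 1.4 to 33.4 ± 1.91 FPKM. Outside the lists, the myosin gene Myo1f fell from 22.1 ± 0.0725 to 6.15 ± 0.0478, the antiprotease gene Slpi from 112 ± 6.93 to 36.5 ± 2 and Lix1 from 10.1 ± 0.342 to 1.8 ± 0.115 FPKM. Car2, carbonic anhydrase 2 (ENSMUSG00000027562.12, chromosome 3, 14886273 to 14900770, plus strand), was at 319.8, 321 and 324 FPKM in M1 and 1132, 1080.4 and 1123 FPKM in I, and Mock held 714, 751 and 752 FPKM. Its I libraries stood above both other groups (limma log2 fold change I over M1 1.79 ± 0.0288 SE, adjusted p = 1.52e-11). Dclre1b, a telomere nuclease gene, rose from 2.46 ± 0.109 to 11.1 ± 0.33 and Gstt4 from 4.42 ± 0.78 to 15.8 ± 0.449 FPKM.

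Among transcription regulators, 3 lists chosen after values had been seen held more rises than falls. Of 15 circadian clock genes 8 rose and 4 fell. Cry2, a repressor of the clock, rose from 7.39 ± 0.117 to 19 ± 0.851 and Ciart from 1.57 ± 0.2 to 3.48 ± 0.26 FPKM, and Nr1d1, which represses the activator Arntl, fell from 5.42 ± 0.719 to 2.9 ± 0.222 FPKM. Of 266 numbered zinc finger protein genes 91 rose and 25 fell, most by small amounts, at a median log2 fold change of 0.07. Zfp62 rose from 6.24 ± 0.508 to 15.9 ± 1.12 and Zfp292 from 7.53 ± 0.788 to 13.7 ± 0.369 FPKM. Of 57 genes of chromatin enzymes 27 rose and 16 fell, and this split differed by gene length, since 34 of the genes were in the longest of 5 length classes (20 rose and 5 fell there) and of the 10 genes in the 3 shortest classes 1 rose and 6 fell. The histone demethylase genes Kdm3a and Kdm6b rose from 6.91 ± 0.502 to 11.1 ± 0.339 and from 5.05 ± 0.378 to 8.02 ± 0.277 and the remodeller gene Chd7 from 5.9 ± 0.177 to 12.6 ± 0.182 FPKM, and the methyltransferase gene Ezh2 fell from 5.46 ± 0.548 to 3.92 ± 0.0836 FPKM. In splicing, a list with 66 genes tested, 26 rose and 25 fell, but after RLE scaling 34 rose and 17 fell and after quantile scaling 33 and 18. The heterogeneous ribonucleoprotein genes Hnrnpa2b1 and Hnrnpu rose from 43.7 ± 1.61 to 64.7 ± 1.24 and from 27.6 ± 0.775 to 36.1 ± 1.62 FPKM, and the core particle genes Snrpd1 and Snrpe fell from 13.6 ± 0.611 to 8.33 ± 0.684 and from 21.8 ± 1 to 14.8 ± 1.17 FPKM.

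**Figure D4:**
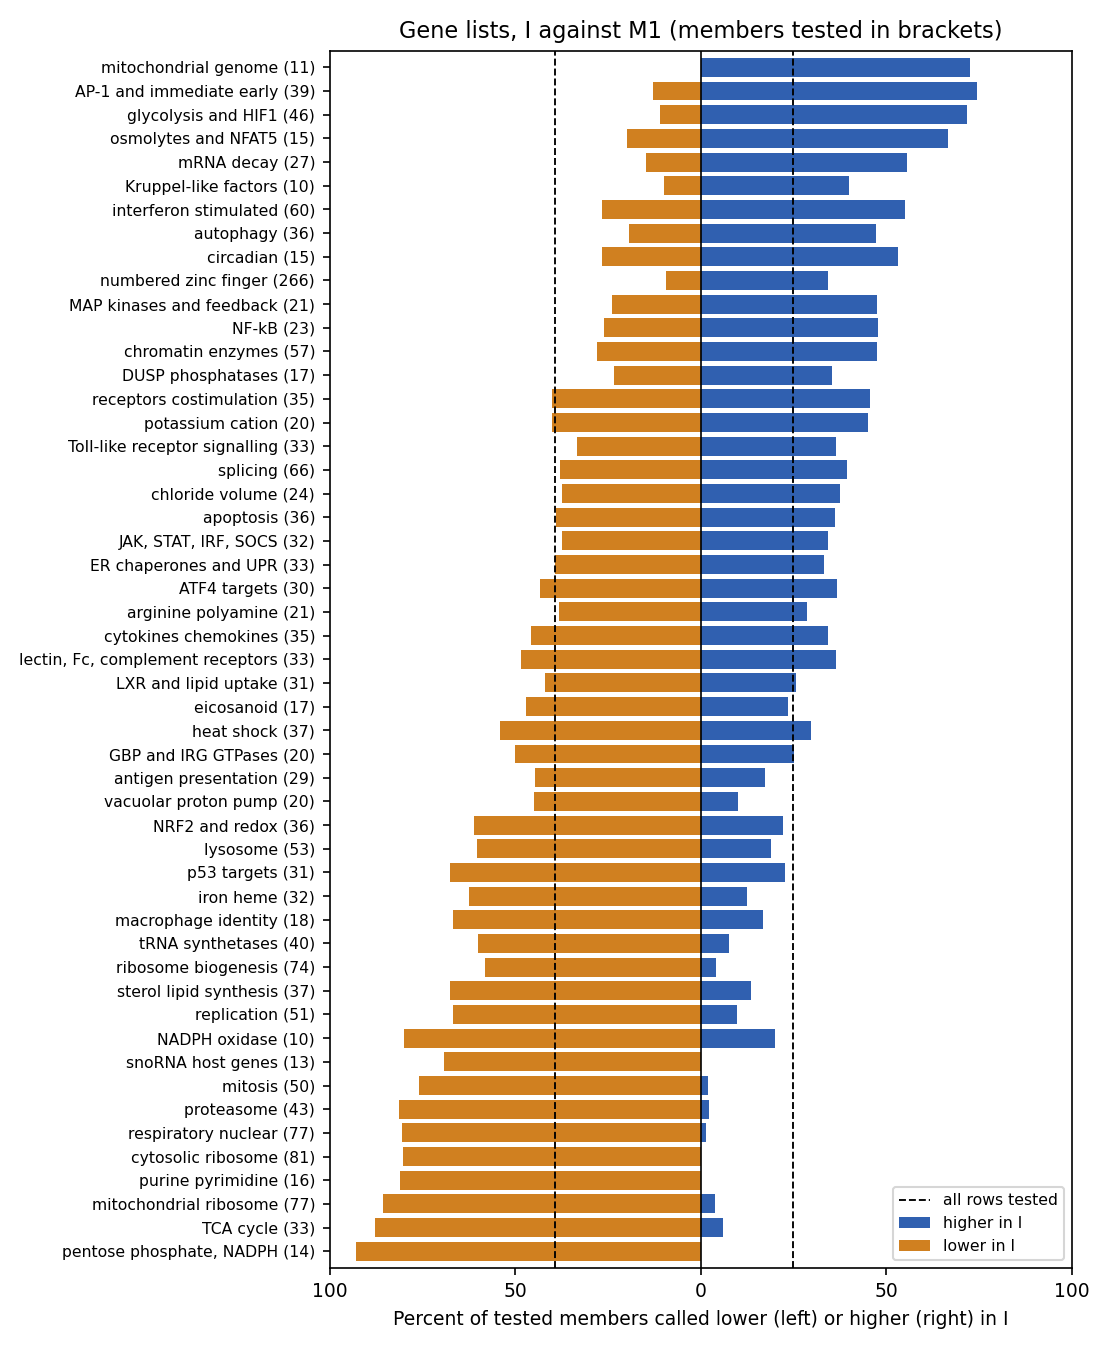
Percent of the tested members of 51 gene lists called higher in I (blue, to the right) or lower (orange, to the left), with the number tested in brackets and dashed lines at the share of all tested rows, 24.9% higher and 39.3% lower. Lists of at least 10 tested genes are shown in order of the percent higher minus the percent lower, from the mitochondrial genome list at the top to the pentose phosphate list at the bottom.

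Rises and falls were not spread evenly over genes of different length. Tested genes were divided by their summed exon length into 5 classes of about equal size. In the class of the shortest, 53 to 2269 bases, 15.5% rose and 43.5% fell, at a median log2 fold change of −0.15. In the class of the longest, from 7351 bases, 34% rose and 29% fell, with a median of 0.02. Short genes are frequent among ribosomal, respiratory and proteasome genes, with median summed exon lengths of 1780 bases for the cytosolic ribosome and 1550 bases for the nuclear respiratory genes. Mitochondrial ribosome genes had a lower median than all genes of their class in each of the 5, with log2 medians of −0.34, −0.44, −0.40, −0.33 and −0.48 from the shortest to the longest, over 38, 14, 11, 8 and 6 genes. AP-1 and immediate early genes had a median of at least 0.29 in each class, over 13, 14, 7, 4 and 1 genes. In the shortest class 9 of 13 rose. Glycolysis and hypoxia genes had a median of at least 0.18 in each class and numbered zinc finger genes one of at least 0.04. Cytosolic ribosome genes, with none in the longest class, had medians of −0.25, −0.26, −0.16 and −0.25 over 51, 22, 6 and 2 genes. Nuclear respiratory genes had medians of −0.34, −0.33, −0.38, −0.27 and −0.11 over 53, 10, 6, 3 and 1 genes. Their single gene in the longest class was not called. Proteasome genes had medians of −0.22 to −0.34 in the other classes and a single gene in the longest, which rose. Lysosome genes ran from −0.52 in the shortest class to 0.06 in the longest, and autophagy genes from −0.11 in the next shortest to 0.26 in the middle class. Chromatin enzyme genes had medians of −0.54, −0.03, −0.18, 0.07 and 0.15. These medians are descriptions, and the other lists were not divided by length.

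**Figure D5:**
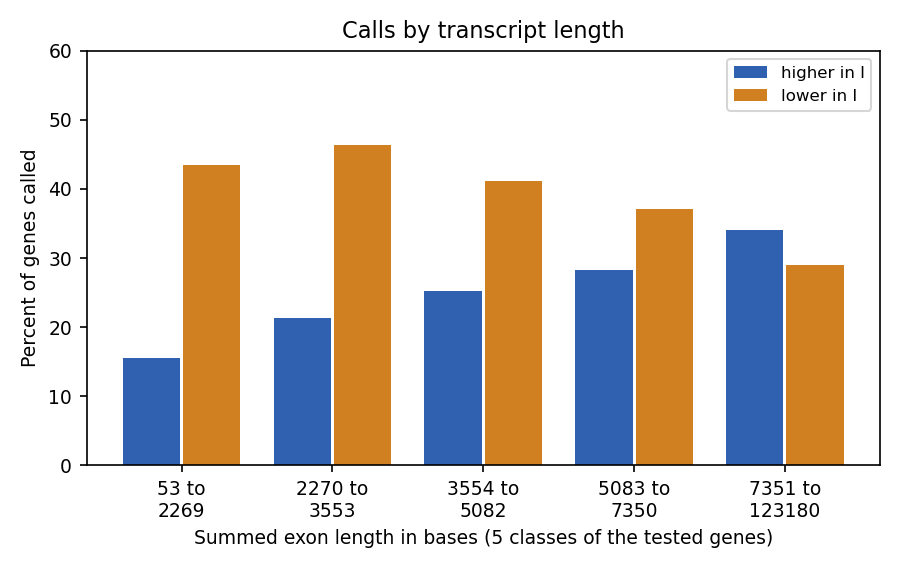
Percent of tested genes called higher (blue) or lower (orange) in I against M1, in 5 classes of the summed exon length in bases. The share of rises goes from 15.5% in the shortest class to 34% in the longest, and the share of falls from 43.5% to 29%.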

How the data were processed

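RNA of RAW264.7 cells was measured in 9 libraries, and the groups were taken from their labels. Per the submitters' processing notes, fastp 0.20.1, HISAT2 2.2.1 and featureCounts 2.0.1 were used with GRCm38. Their settings, the strand use and the annotation are not stated in the sources used here. The values the authors deposited are FPKM, a unit read from the values. With the summed exon lengths of GENCODE vM21 (GRCm38), which matched 12204 of 12474 rows, 98.4% to 98.5% of the values in the M1 and I libraries gave whole fragments within 0.05.

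Limma 3.58.1 in R 4.3.3 was fitted to log2(FPKM + 1) of all 9 libraries, with an intensity trend and a term per group, and the contrast was I minus M1. The test took 11156 rows that reached 0.5 FPKM in 3 or more libraries and left out 1318. Calls have a Benjamini-Hochberg adjusted p under 0.05 over these rows. Log2 fold changes understate the change of low genes, and folds are ratios of mean FPKM. Tables used Python 3.11.15 with pandas 2.3.3. The model was also run on simulated data in which only a small set of genes changed. Most rows differed in the real data, so that run does not test calls of this kind. Promoter sequences are from RefSeq.

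The 53 gene lists, with 6 more added after values had been seen, and the naming rule were chosen with earlier results of these data known. The rule took the 15 largest rises and falls with at least 10 FPKM in the higher group and groups that do not overlap, and up to 6 members of each list by adjusted p. Further list members were picked after their values had been seen. Some members that the rule took are not reported here. Libraries with the same replicate number did not deviate together (r = −0.0868, −0.0402 and 0.0474), so the numbers were not used as pairs. Alternatives were RLE and quantile scaling, a pseudocount of 0.1, other filters, 6 libraries only, limma-voom on recovered fragments, a test against a 1.2-fold change, the replicate block and leaving out each library.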

Additional observations from a re-analysis of the deposited data

How the results depend on the processing

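Against a change of 1.2-fold (limma treat), 860 of the 11156 tested rows were higher and 1327 lower. The lists with most falls shrank, to 34 lower of 77 for the mitochondrial ribosome, 27 of 77 for the nuclear respiratory genes and 12 of 43 for the proteasome. In the cytosolic ribosome 9 of 81 were lower, a share near that of all tested rows under this test. Against the same bound, 22 of 46 glycolysis and hypoxia genes and 18 of 39 AP-1 and immediate early genes were higher. So were 11 of 60 interferon-stimulated genes and 4 of 11 mitochondrial genome genes. Rows at least 2-fold higher were 243 with a pseudocount of 0.1, 294 with limma-voom and 70 with a mean FPKM of at least 5, and rows at least 2-fold lower were 250 with a pseudocount of 0.1 and 329 with limma-voom. Leaving out 1 library gave 2539 to 2659 rows higher, 4121 to 4183 lower, 115 to 122 at least 2-fold higher and 86 to 93 at least 2-fold lower. With RLE scaling 3478 rows were higher and 3540 lower, and with quantile scaling 3364 and 3610. With the replicate block, a fit that treats libraries of the same number as pairs, 2713 rows were higher and 4319 lower, and 6928 of its 7032 calls were among the 7157, none in the other direction. Of 396 genes named here or taken by the naming rule, RLE scaling reversed G6pdx, to a log2 fold change of 0.0032, and quantile scaling reversed Ldha, to 0.0833, and set COX1 to 0.0000, and the cause was not tested. No other called gene among them changed direction under any alternative that was run. The 1.2-fold test lost the calls of 61 of the 396 genes. Apart from that test, the calls lost under at least 1 alternative were those of Klf2, ATP6, G6pdx and COX1.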
